A study of Brassica napus with 9 samples.

Results

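In the third leaf of *Brassica napus* L. seedlings, 45 genes kept nearly the same FPKM through drought and through drought with fullerol, and these stably expressed genes are described here. They were chosen on their values: an identifier starting with Bna, a mean of at least 20 FPKM (fragments per kilobase of gene and per 1000000 read pairs, a level corrected for gene length) over all 9 libraries, and a highest library no more than 1.25 times the lowest. Of the 104592 identifiers in the files, 101040 start with Bna, 9247 of those had a mean of at least 20 FPKM, and the 45 make up 0.487% of the latter. Because all 9 libraries took part in the choice, the values of these genes describe it and test nothing. Values of libraries and groups left out of a choice are given further on. They concern other sets of genes, chosen on fewer libraries, and none stands apart from the choice of the 45.

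All plants were wild type seedlings of the cultivar Zhongshuang 11 grown in pots in a growth chamber. The check (CK) was kept at 80% of field capacity with water on the leaves, the drought group (D) was dried to 30% of field capacity with water on the leaves, and the third group (D + F) was dried likewise with 100 mg/L fullerol, a water-soluble hydroxylated fullerene, on the leaves. No group received fullerol without drought. Each group had 3 libraries of whole-leaf RNA, and the sources used here do not say whether a library came from 1 plant or several.

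Reference genes are transcripts whose level is taken as constant, so that the measured level of another gene can be divided by theirs to remove differences in the amount and quality of RNA. Genes of basic cell upkeep, such as those for actin, tubulin, ubiquitin and elongation factors, are the usual choice in plants, and their constancy has to be checked in each tissue and stress, since drought changes much of a leaf's transcriptome. *B. napus* is an allotetraploid with an A and a C subgenome, and many of its genes have a near-identical copy in the other subgenome. The study normalised its own qRT-PCR to a β-actin gene, and the files do not pair an identifier with it, so its level is not given here. Whole leaves were measured, so fewer cells of a type and less RNA per cell cannot be told apart, and the leaf label was not checked against marker genes because the identifiers carry no names.

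Between 46123 and 48924 genes were above 1 FPKM in each library. The library totals, solved from the digits of the FPKM values, lay between 21939148 and 26042002 read pairs. Library-wide values bear on any choice of stable genes. The summed FPKM of a library was 1.06e+06 to 1.09e+06 in CK and 1.16e+06 to 1.21e+06 in the droughted libraries, without overlap. The median-of-ratios factor of a library, which puts the median gene at the same level in all libraries, ran from 0.900 in D 2 to 1.13 in D + F 3, with 1.10 in CK 3.

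The 45 genes lay between a mean of 20.5 and 601.5 FPKM, with a median of 39.3 against 38.5 over the 9247 genes of that level. No library had less than 19.2 FPKM of any of them. Their ratio of the highest to the lowest library ran from 1.13 to 1.25 (median 1.22), and their coefficient of variation over 9 libraries from 4.25% to 8.75% (median 6.77%). Over the 9247 genes the median ratio was 2.40 and the median coefficient of variation 28.9%, 6113 genes had a ratio of at least 2, and 33 were listed at 0 in at least 1 library. The histogram of ratios shows that the 45 form the extreme left edge of 1 broad distribution and are not separated from it.

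**Figure D1:**
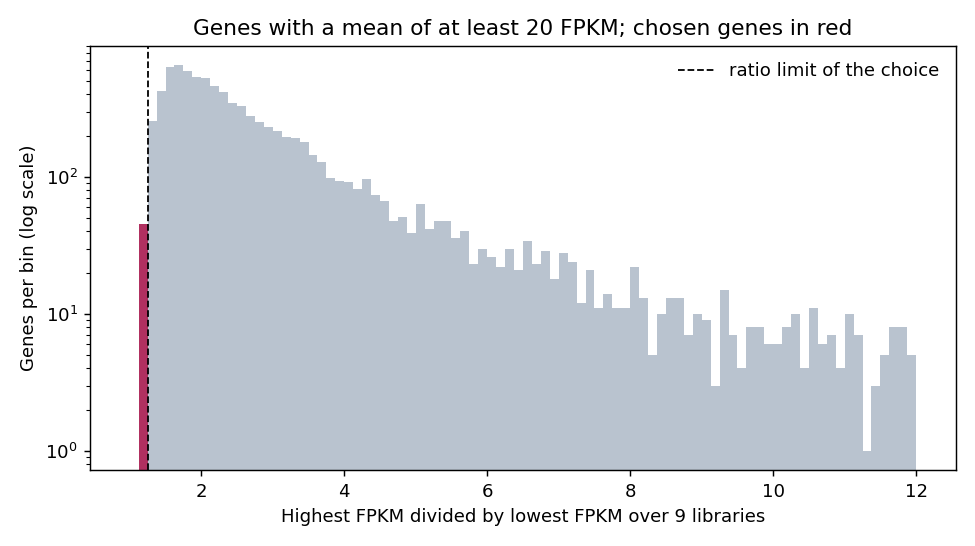
Ratio of the highest to the lowest of 9 FPKM values (x axis, linear, bins of 0.125) against the number of genes per bin (y axis, log scale) for the 9247 genes with a mean of at least 20 FPKM. The 45 chosen genes, in red, lie left of the dashed limit at 1.25, and 521 genes with a ratio above 12 and 33 genes listed at 0 in a library are not drawn.

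The lowest ratio belonged to BnaC06g30560D, which was 42.0, 41.5 and 43.8 FPKM in CK 1 to 3, 46.0, 42.5 and 45.3 in D 1 to 3, and 46.6, 41.1 and 41.6 in D + F 1 to 3. Its highest library (D + F 1) and its lowest (D + F 2) were of the same group, the 3 groups overlapped, and the ratio was 1.13. These values rest on 644 to 735 read pairs per library. BnaC03g27570D, at the lower edge of the level limit, was 21.4, 21.1 and 21.9 FPKM in CK 1 to 3, 20.4, 20.1 and 19.9 in D 1 to 3, and 20.2, 19.3 and 19.7 in D + F 1 to 3. It had the lowest coefficient of variation of all 9247 genes (4.25%) and a ratio of 1.14, yet its 3 CK libraries were all above its 6 droughted libraries. The CK mean was 21.5 ± 0.409 FPKM, the D mean 20.1 ± 0.272 and the D + F mean 19.7 ± 0.459 (SD, n = 3 each), and limma's test called none of its comparisons.

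BnaC05g49520D, with a ratio of 1.16, was 20.9, 19.2 and 21.3 FPKM in CK 1 to 3, 19.6, 22.2 and 19.8 in D 1 to 3, and 20.8, 21.0 and 20.5 in D + F 1 to 3. Its group means were the closest of the 45, with the highest 1.01 times the lowest, and its lowest and highest libraries were CK 2 and D 2. BnaC05g17960D had a ratio of 1.16 and was 33.3, 34.3 and 36.0 FPKM in CK 1 to 3, 32.5, 30.9 and 31.9 in D 1 to 3, and 34.3, 31.8 and 33.4 in D + F 1 to 3. All 3 D libraries lay below all 3 CK libraries, and the D + F libraries overlapped both. BnaC07g40440D (1.17) was 38.7, 37.1 and 39.4 FPKM in CK 1 to 3, 37.5, 37.6 and 41.2 in D 1 to 3, and 35.3, 38.8 and 39.5 in D + F 1 to 3. Its groups overlapped throughout, and it varied less against the other stable genes than any of them did, as described with the pairs of genes.

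Of the other 5 genes with the lowest ratios, BnaC09g47650D (1.17) was the most abundant. It was 232, 241 and 259 FPKM in CK 1 to 3, 253, 229 and 238 in D 1 to 3, and 268, 233 and 233 in D + F 1 to 3, with a mean of 242.9 FPKM and group means within 1.02 times of each other. BnaC01g03120D (1.17, mean 87.4 FPKM) and BnaCnng47180D (1.17, mean 20.6) followed, the first highest in D + F 3 and the second in CK 3. BnaAnng22220D (1.19) was 38.7, 38.9 and 39.7 FPKM in CK 1 to 3, 36.7, 39.4 and 43.6 in D 1 to 3, and 41.0, 41.2 and 40.4 in D + F 1 to 3. Its D libraries spanned the values of both other groups, while the 3 D + F libraries lay above the 3 CK libraries. The tenth gene, BnaA02g01600D (1.20), had a mean of 45.6 FPKM, with its highest value in CK 3 and its lowest in D + F 3.

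**Figure D2:**
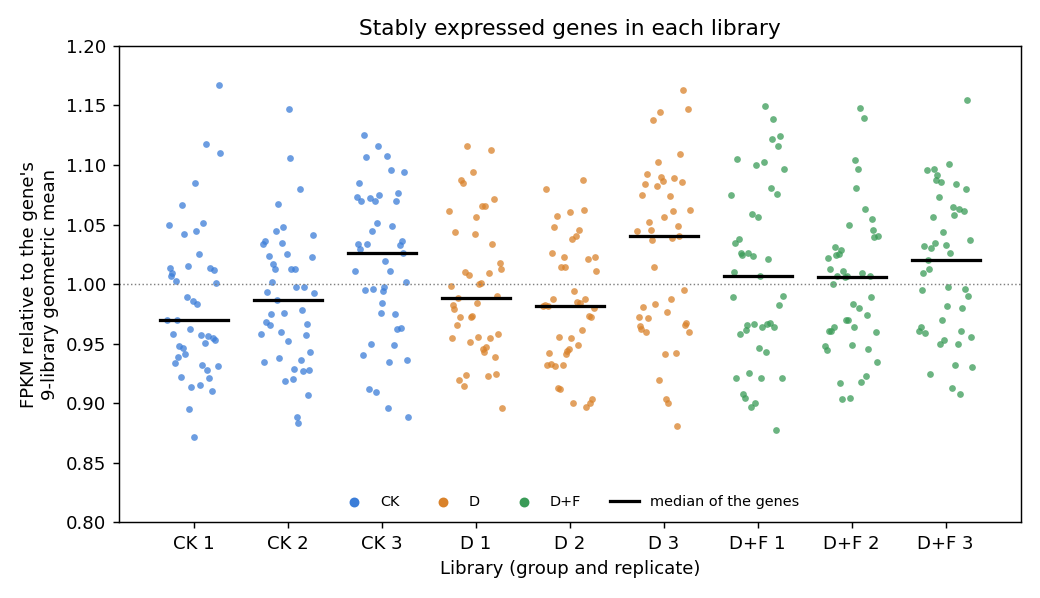
FPKM of each of the 45 stably expressed genes divided by the gene's geometric mean over 9 libraries (y axis), by library (x axis), with a point per gene, coloured by group, and a black bar at the median gene. The medians lie between 0.970 (CK 1) and 1.04 (D 3).

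An abundant transcript is easier to measure as a reference, and the 8 with the highest means are given next. BnaCnng16050D, the 205th most abundant of all identifiers, was 670.2, 648 and 569 FPKM in CK 1 to 3, 553, 576 and 565 in D 1 to 3, and 580.1, 683 and 569 in D + F 1 to 3. It was highest in CK 1, CK 2 and D + F 2 and between 553 and 580.1 FPKM elsewhere, so that CK and D + F each held values from both ends. BnaC08g06270D was 349, 356 and 313 FPKM in CK 1 to 3, 327, 352 and 379 in D 1 to 3, and 364, 333 and 326 in D + F 1 to 3, lowest in CK 3 and highest in D 3, with all groups overlapping. BnaC01g13740D was 280.3, 283 and 294 FPKM in CK 1 to 3, 305, 328 and 266 in D 1 to 3, and 326, 321 and 321 in D + F 1 to 3. Its D + F libraries were all above its CK libraries, and its D libraries held both its highest and its lowest value.

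BnaC04g32090D was 241, 251 and 242 FPKM in CK 1 to 3, 257, 243 and 289.9 in D 1 to 3, and 246, 262 and 264 in D + F 1 to 3, with D 3 above all other libraries. BnaA07g11570D was 168, 151 and 181 FPKM in CK 1 to 3, 164, 163 and 147 in D 1 to 3, and 158, 177 and 168 in D + F 1 to 3, with its highest value in CK 3 and its lowest in D 3. Both had overlapping groups, and their group means lay within 1.08 and 1.06 times of each other. BnaC09g47650D, described above, BnaA03g56710D (mean 96.5 FPKM, ratio 1.22) and BnaC01g03120D complete the 8. BnaCnng16050D had on average 7679 read pairs per library and a variance 55.5 times that of counting alone, against 1.34 times for BnaC03g27570D with 739. Their coefficients of variation were 8.39% and 4.25%. At a given coefficient of variation the ratio to counting variance rises with the number of reads, so these ratios do not compare relative spread.

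The spread was also set against counting error. The reads of the 45 genes varied by a median of 4.55 times the variance of Poisson counting at the library totals (range 1.34 to 55.5), against a median of 61.2 times over the 9247 genes. For 5 of the 45 the variance was under 2 times that of counting and for 12 under 3 times, of 12 and 42 genes of that level in all. The choice bounded the spread of the 45 in these same values, so the gap to the 9247 is no finding. None of the 471 genes with at most 200 read pairs on average was stable by the rule, 1 of the 1506 genes with over 200 and up to 400 was (BnaC07g44380D, 348 read pairs), and 13 of 2839 with over 400 and up to 800. Above that the share stayed between 0.624% and 0.726%. The coding length solved from the digits had a median of 1041 bases for the 45 and 750 for the 9247, so that the 45 carry more reads at a given FPKM.

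At the ratio limit, the last genes inside were BnaC06g42880D (1.245), BnaA04g14640D (1.248) and BnaC09g37940D (1.249), and the first outside were BnaC05g25770D (1.253), BnaA04g20180D (1.256) and BnaC07g21420D (1.256). At the level limit, BnaC03g27570D, BnaC05g49520D and BnaCnng47180D were inside with 20.5 to 20.6 FPKM, and BnaA08g11500D (19.9 FPKM, ratio 1.14), BnaA09g37670D (19.8, 1.23) and BnaC03g70960D (19.7, 1.24) fell just outside. With limits of 1.2 and 1.3 in place of 1.25 the rule takes 11 and 103 genes, and with means of at least 10 and 50 FPKM it takes 121 and 18.

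Genes failed the rule for different reasons. Of the 9247 genes, 2488 had a ratio within 1.25 among the 3 CK libraries, 3833 among the D libraries and 2871 among the D + F libraries, and 646 within each group. The group means lay within 1.25 times of each other for 1771 genes, and 238 met both conditions. Over the 6 libraries of a pair of groups, 198 genes passed for CK and D, 189 for CK and D + F, and 652 for D and D + F, which is 2.14%, 2.04% and 7.05% of the 9247. Over all 9 libraries 45 passed.

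The comparisons of the groups were made with limma on log2(FPKM + 1), with adjustment over the 50626 genes above 1 FPKM in at least 3 libraries. In D vs. CK, 32.0% of the genes tested were called at an adjusted p under 0.05, and 0 of the 45. In D + F vs. CK, 17.1% were called and 0 of the 45, and in D + F vs. D, 1.15% and 0 of the 45. None of the 45 had an unadjusted p under 0.05 in any of the 3 comparisons, and no other tool was run. The lowest adjusted p of the 45 by limma was 0.245, 0.467 and 0.415. Nothing is read from these zeros, since a ratio of at most 1.25 bounds every fold these tests could see.

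The fitted log2 differences of the 45 ran from -0.16 to 0.21 in D vs. CK (median 0.01, SE 0.12 to 0.21), from -0.14 to 0.17 in D + F vs. CK (median 0.02) and from -0.17 to 0.20 in D + F vs. D (median -0.01). In percent of the CK mean, D differed from CK by -10.7% (BnaA09g20510D) to 16.0% (BnaC04g07230D), and D + F from CK by -9.77% to 13.5% for the same genes. In percent of the D mean, D + F differed from D by -11.2% (BnaC04g43510D) to 15.3% (BnaC09g44560D).

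Some of the 45 still had groups whose libraries did not overlap. In D vs. CK this held for 9 of 45 genes against 49.8% of the 50626, with 4 higher and 5 lower in D. In D + F vs. CK it held for 7 genes against 39.4% of all, with 4 higher and 3 lower, and in D + F vs. D for 3 genes against 24.8%, with 2 higher and 1 lower. As the choice used these contrasts, the gap to the background is no finding. In total 16 of the 45 were apart in a comparison, 13 in 1 and 3 in 2, and the other 29 overlapped in all 3 comparisons.

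BnaC04g07230D, the gene with the largest group difference of the 45, was 35.1, 35.7 and 34.4 FPKM in CK 1 to 3, 40.9, 40.0 and 41.2 in D 1 to 3, and 42.3, 42.1 and 35.0 in D + F 1 to 3. Its 3 D libraries and D + F 1 and D + F 2 were all above CK, whereas D + F 3 was at the level of CK. BnaA06g22290D was 45.2, 49.4 and 51.0 FPKM in CK 1 to 3, 54.8, 55.0 and 54.8 in D 1 to 3, and 54.8, 49.2 and 53.5 in D + F 1 to 3. The 3 D libraries were nearly equal and above every CK library, with D + F overlapping both. BnaC07g44380D and BnaC03g28700D were also higher in every D library than in any CK library, with D means above CK by 11.7% or more.

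BnaA09g20510D was 63.9, 67.5 and 58.5 FPKM in CK 1 to 3, 57.9, 56.2 and 55.4 in D 1 to 3, and 55.7, 57.9 and 57.8 in D + F 1 to 3, and every CK library was above every droughted one. BnaAnng00500D and BnaA09g40610D were lower in each D library than in any CK library, with mean differences of -10.05% and -9.614%. BnaC09g44560D was 32.1, 28.7 and 32.8 FPKM in CK 1 to 3, 29.3, 28.5 and 31.5 in D 1 to 3, and 35.4, 33.4 and 34.2 in D + F 1 to 3. It was the only one of the 45 whose D + F libraries were above both other groups, and its D and CK libraries overlapped. BnaC07g06450D was also higher in D + F than in D without overlap (11.5%), and BnaC04g43510D was lower. BnaCnng52160D was lower in D + F than in CK (-6.41%) and BnaA01g19280D higher (6.11%).

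Choices made on fewer libraries left values of other libraries and groups that those choices had not used. With the rule applied to 8 libraries, 55 (without D + F 2) to 137 genes (without CK 3) were chosen, and all 45 were always among them, as a ratio over fewer libraries cannot be larger. Of those chosen without D + F 2, 81.8% remained within the limit once it was added. The share was 80.4% for D 1, 74.2% for D 3, 71.9% for D 2, 64.3% for CK 2, 62.5% for D + F 1 and 61.8% for CK 1. It was lower for D + F 3, at 47.4% of 95 genes, and lowest for CK 3, at 33.6% of 137 genes. Since all 45 are in every set and pass, 45 to 47 genes remained each time. These shares therefore mainly restate how many genes were chosen on 8 libraries. In CK 3 the genes chosen on the other 8 libraries had a median of 1.14 times their mean there, with a middle range from 0.991 to 1.30. CK 3 and D + F 3 are also the libraries with the highest median-of-ratios factors, and with both left out the rule takes 271 genes. Their part in the number of stable genes beyond these values was not tested.

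When a whole group was left out, the genes chosen on the other 6 libraries were compared with its mean. The mean limit of 20 FPKM was then taken over those 6 libraries, so these counts differ from those over pairs of groups above. The genes counted below as meeting the ratio limit over all 9 are for that reason not exactly the 45. BnaC03g27570D, for instance, fell under the level limit without CK. Of 642 genes stable over D and D + F, the CK mean lay within 1.25 times of theirs in either direction for 355 (55.3%), above it for 101 and below it for 186, and 45 (7.01%) met the ratio limit over all 9. Of 189 genes stable over CK and D + F, the D mean was within for 155 (82.0%), above for 5 and below for 29, and 46 met the ratio limit over all 9. Of 195 genes stable over CK and D, the D + F mean was within for 179 (91.8%), above for 16 and below for 0, and 46 met the ratio limit over all 9. This measure was not computed over all genes of that level, so the shares are not read as a trait of the chosen genes. Over the 9247 genes, the lower and upper quartiles of D + F against D were -6.08% and 28.7%. Those of D against CK were -30.1% and 58.1%, and those of D + F against CK -17.4% and 57.7%. The shares compare 1 group's mean with that of 6 libraries and were not tested against each other.

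**Figure D3:**
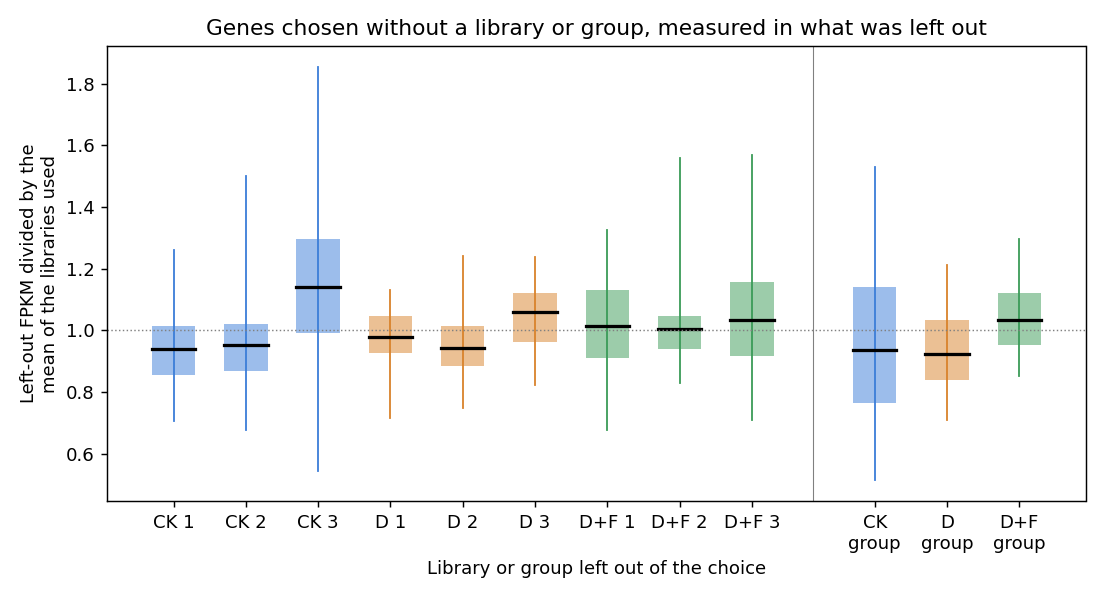
FPKM in a library or group left out of the choice, divided by the mean of the libraries used (y axis), for the genes chosen without it. For single libraries on the left, boxes span the middle 50% of genes, black bars the median and lines the full range, and for groups on the right lines span the 5th to 95th percentile of the group mean. CK 3 has the highest median (1.14) and the CK group the widest box (0.764 to 1.14).

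The choice depended on how libraries were scaled. After median-of-ratios scaling the same limits took 89 genes, of which 13 were among the 45 (28.9% of the 45 and 14.6% of that choice). Quantile normalisation took 97 genes with 16 shared (35.6% and 16.5%), and rescaling each library to a sum of 1000000 (TPM, a level relative to the library's whole) took 42 with 17 shared (37.8% and 40.5%). The highest and the lowest median-of-ratios factor differ 1.253 times, so a gene with the same FPKM in all 9 libraries exceeds the limit after that scaling, by construction. The 45 had a median ratio of 1.31 after median-of-ratios scaling (range 1.15 to 1.47), 1.28 after quantile normalisation (1.12 to 1.58) and 1.28 as TPM (1.16 to 1.38).

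The scaling also set the direction in which the 45 leaned. As deposited, their median level relative to their own 9-library mean was between 0.970 and 1.04 in every library. After median-of-ratios scaling it ran from 0.905 in D + F 3 and 0.931 in CK 3 to 1.09 in D 2, so that 39 of 45 lay higher in D than in CK (median log2 difference 0.11) and 43 of 45 lay below their D level in D + F (median -0.16). After quantile normalisation 18 of 45 lay higher in D than in CK and 35 below D in D + F. As deposited, 26 lay higher in D and 24 below D in D + F. Against CK, D + F was lower for 39 of 45 after quantile normalisation (median -0.12), for 25 after median-of-ratios scaling (median -0.02) and for 19 as deposited (median 0.02). The genes chosen after median-of-ratios scaling had as their median FPKM 0.886 in D 2 and 1.13 in D + F 3 of their own mean. These values are close to the factors themselves, by construction, as the genes were chosen to be flat after division by the factors. The 45 together made up 0.327% to 0.332% of the summed FPKM in CK and 0.293% to 0.311% in the droughted libraries, although their own summed FPKM, 3487 to 3638, showed no such gap.

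The same scaling moved the comparisons over all genes tested. The median log2 difference in D + F vs. D went from 0.14 as deposited to 0.01 with median-of-ratios scaling. In D vs. CK the calls went from 6248 higher and 9961 lower to 8259 higher and 8676 lower. In D vs. CK with the deposited values, the median of the 45 was 0.01 and that of all genes tested -0.10 on the log2 scale.

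**Figure D4:**
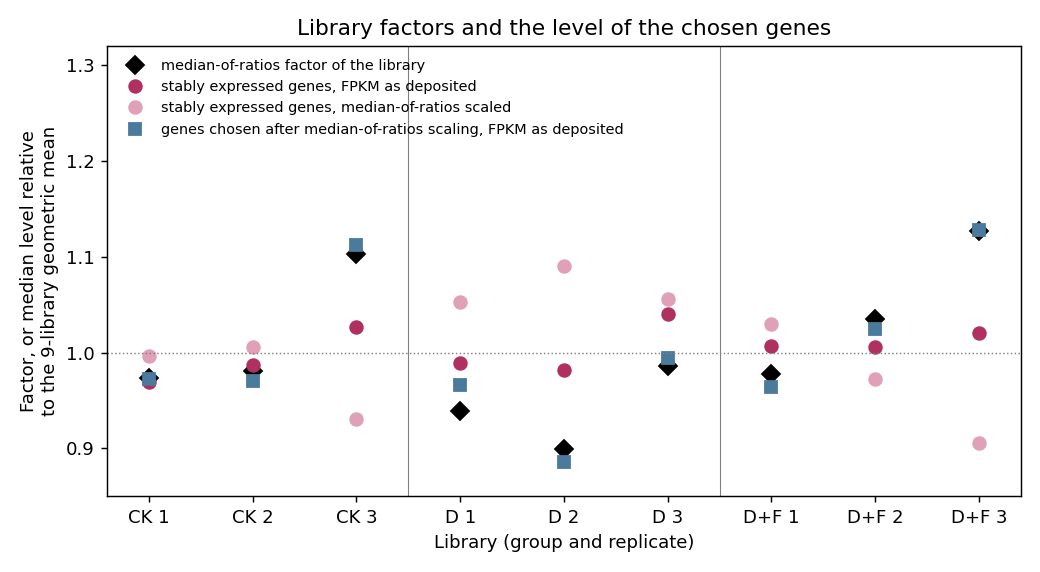
Median-of-ratios factor of each library (black), and the median level of the 45 stably expressed genes as deposited (dark red) and after that scaling (light red), and of the 89 genes chosen after that scaling with their FPKM as deposited (blue squares), each relative to the gene's 9-library geometric mean (y axis), by library (x axis). The blue squares follow the factors from 0.886 in D 2 to 1.13 in D + F 3, and the dark red points stay between 0.970 and 1.04. Both follow from how each set of genes was chosen.

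Of the 45 genes, 8 kept a ratio within 1.25 as deposited, after median-of-ratios scaling and after quantile normalisation. These were BnaC07g40440D, BnaAnng22220D, BnaA05g00730D, BnaA06g04130D, BnaC04g03320D, BnaCnng53920D, BnaC09g44560D and BnaC07g44770D, with means between 26.5 and 67.5 FPKM. BnaC07g40440D had the lowest worst ratio of the 3 scalings (1.23), and 5 of the 8 were within the limit as TPM too, all except BnaA05g00730D, BnaA06g04130D and BnaC09g44560D. BnaC05g17960D and BnaC08g34150D missed by little, with a worst ratio of 1.254 each, after quantile normalisation. BnaC05g17960D had 1.18 and BnaC08g34150D 1.23 after median-of-ratios scaling.

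BnaC07g44770D was 53.9, 52.5 and 58.1 FPKM in CK 1 to 3, 56.1, 55.1 and 54.7 in D 1 to 3, and 55.6, 59.2 and 65.4 in D + F 1 to 3. D + F 3, the library with the highest factor, was its highest value, and its ratio fell from 1.24 as deposited to 1.16 after median-of-ratios scaling. BnaA06g04130D was 51.4, 52.9 and 53.3 FPKM in CK 1 to 3, 52.3, 47.0 and 51.0 in D 1 to 3, and 48.1, 57.7 and 57.5 in D + F 1 to 3. Its highest values were those of D + F 2 and D + F 3, and its ratio fell from 1.23 to 1.15, the lowest of the 45 after that scaling. BnaCnng53920D was 37.3, 34.6 and 41.2 FPKM in CK 1 to 3, 37.2, 38.6 and 42.7 in D 1 to 3, and 40.1, 39.6 and 42.5 in D + F 1 to 3. Its ratio after quantile normalisation, 1.12, was the lowest of the 45 there.

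BnaA05g00730D was 66.6, 64.6 and 72.0 FPKM in CK 1 to 3, 67.8, 62.8 and 72.9 in D 1 to 3, and 60.4, 67.7 and 72.3 in D + F 1 to 3. Its lowest and highest values were D + F 1 and D 3, and its group means were within 1.02 times of each other. BnaC04g03320D was 24.7, 26.4 and 26.7 FPKM in CK 1 to 3, 24.9, 25.1 and 27.5 in D 1 to 3, and 24.9, 30.4 and 28.0 in D + F 1 to 3, with D + F 2 above the rest. The ranges of these 8 genes over the 3 scalings stayed within the limit of the rule, which was set on the deposited values only.

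**Figure D5:**
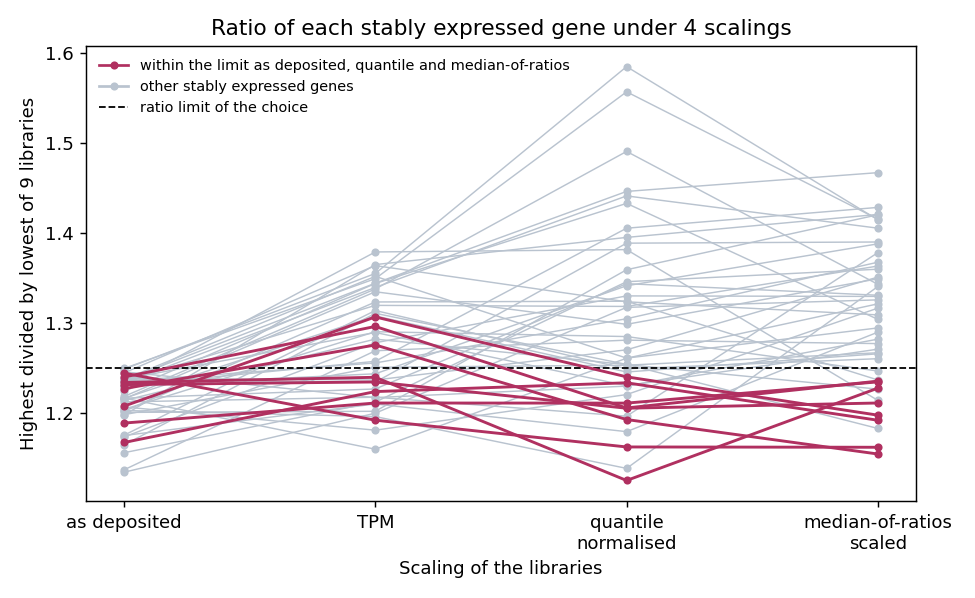
Ratio of the highest to the lowest of 9 libraries (y axis) for each of the 45 genes under 4 scalings of the libraries (x axis), with a line per gene. The 8 genes in red stay at or under the dashed limit of 1.25 as deposited, quantile normalised and median-of-ratios scaled, 3 of them pass it as TPM, and the other genes reach up to 1.58.

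Ratios between genes do not depend on the scaling of the libraries by a factor. The choice of the genes paired here does, as it was made on the deposited values. For each of the 990 pairs of the 45 genes, the SD of their log2 ratio over the 9 libraries was between 0.04 and 0.23 (median 0.13). BnaA09g40610D and BnaAnng00500D had the closest profiles (0.04), at means of 28.8 and 77.1 FPKM. BnaA09g40610D was 29.9, 30.7 and 30.0 FPKM in CK 1 to 3, 26.6, 26.2 and 29.1 in D 1 to 3, and 29.5, 26.0 and 31.2 in D + F 1 to 3. BnaAnng00500D was 82.0, 80.3 and 82.4 FPKM in CK 1 to 3, 70.3, 70.1 and 79.7 in D 1 to 3, and 73.9, 70.5 and 84.3 in D + F 1 to 3. In both, D 1, D 2 and D + F 2 were low, and D + F 3 was the highest library. The next closest pair was BnaA05g00730D and BnaC07g40440D (0.05). A shared profile among genes held within 1.25 times describes small differences only.

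Averaged over all partners of a gene, this SD (the M value of the geNorm procedure for reference genes) ran from 0.11 to 0.16 with a median of 0.13. BnaC07g40440D had the lowest M (0.107), followed by BnaAnng22220D (0.109), BnaC06g30560D (0.112) and BnaC05g17960D (0.113). BnaCnng16050D, the most abundant, had the highest (0.161), with BnaC04g07230D and BnaC09g37940D next (0.158 each). BnaC07g40440D and BnaAnng22220D were among the 10 lowest ratios, within the limit under the 4 scalings tried, and lowest in M. The M values rest on the same 9 libraries as the choice, and on partners all chosen for flat FPKM as deposited. A low M therefore partly restates that choice and is no separate evidence of stability. The set of partners also depends on the scaling. After median-of-ratios scaling the rule took 89 genes, of which 13 were among these partners.

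The identifiers place 17 of the 45 in the A subgenome and 28 in the C subgenome (37.8% and 62.2%), beside 46.0% and 53.8% of the 9247 genes of that level. A09 held 5 of the 45, C04, C07, C09 and the unplaced C sequences 4 each, and no chromosome more than 0.909% of its genes of that level. No sequence in the files tells which of the 45 have a near-identical copy in the other subgenome, and how reads matching both copies were counted is not stated, so the value of any single copy is uncertain to that extent. Of the 3552 loci listed outside the Bna models, 212 had a mean of at least 20 FPKM and 0 passed the ratio limit.

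The 39 stable genes on numbered chromosomes have 78 neighbours, the genes numbered directly before and after them. None of the 45 is among these, from which nothing is read, because 13 of the 78 reached the level limit and 0.487% of all genes of that level are stable. Of the neighbours 30 had a mean under 1 FPKM, and the 13 of at least 20 FPKM had ratios from 1.43 (BnaC01g13750D, beside BnaC01g13740D) to 1291 (BnaA09g30450D), and a median of 3.06. BnaA09g30440D itself was 36.8, 38.3 and 36.4 FPKM in CK 1 to 3, 38.9, 35.3 and 40.5 in D 1 to 3, and 41.0, 33.7 and 35.6 in D + F 1 to 3. BnaA09g30450D, the next number, was 152, 141 and 152 FPKM in CK 1 to 3, 0.233, 0.479 and 0.118 in D 1 to 3, and 0.362, 0.952 and 1.92 in D + F 1 to 3. The stable gene's groups overlapped, and its neighbour's CK libraries were all far above its droughted ones. BnaA06g04140D, beside BnaA06g04130D, went the other way, at 17.4 to 37.7 FPKM in CK and 136.6 to 274.8 in the droughted libraries.

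None of the 45 could be named. The RefSeq gene table of *B. napus*, built on the Da-Ae assembly, holds 3347 of the identifiers in the files and 2 of the 45, BnaA09g20510D and BnaC03g28700D, and gives neither a product name. The study pairs 132 identifiers with symbols, all of them genes it had selected as differentially expressed on these samples, and its pathway lists were built from such genes too. None of the 45 was in them as far as they were held, and given that selection nothing is read from this. Whether the textbook reference genes are among the 45 was therefore not analysed here.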

How the data were processed

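Leaf RNA of 9 libraries (CK, D and D + F, 3 each) had been sequenced as read pairs. Per the paper, the authors cleaned the reads, mapped them to a rapeseed reference with TopHat, summed them per gene with HTSeq and deposited FPKM, 1 file a library. The submitters' processing notes instead name Bowtie 0.12.2 and mm8, a mouse build. How reads matching several copies were counted is not given in the sources used here.

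FPKM were used as deposited. Whole reads, coding lengths and library totals were solved from their digits. All 83223 values of the 9247 genes of that level gave whole reads within 0.02. The scale of lengths rests on loci outside the Bna models, whose lengths are not all multiples of 3 as those of the 9247 genes are. Tested on simulated data of 9 libraries, the procedure returned the library totals with an error of 0 and every read count for 1894 of 1897 genes. The replicates are biological per the paper, and neither it nor the labels say whether they were separate pots or plants, so p-values measure the spread between these libraries.

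Groups were compared with limma 3.58.1 (R 4.3.3; empirical Bayes with trend, on log2(FPKM + 1) of the 6 libraries concerned, genes above 1 FPKM in at least 3 of 9 libraries, Benjamini-Hochberg adjustment over 50626 genes), in place of the authors' DESeq on read counts. A fold on this scale understates the change of low genes. Tables were made with Python 3.11.15, numpy 2.4.6 and pandas 2.3.3, and figures with matplotlib 3.10.9. Alternatives were other pseudocounts, filters, scalings, limits and fits, and leaving out libraries. Median-of-ratios factors came from 39770 genes above 1 FPKM in all libraries.

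Genes, lists and tests were chosen with earlier results of these data known. Named were the 10 lowest ratios, the 8 highest means, the 10 lowest worst ratios over 3 scalings, 3 genes on each side of each limit, any gene that the study's lists or RefSeq name, and the 3 closest group means. Genes whose groups did not overlap, the extremes of a measure, close pairs and neighbours were named after their values were seen.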

Additional observations from a re-analysis of the deposited data

How the results depend on the processing

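The number of stable genes, 45 as reported, was 89 with median-of-ratios scaling, 97 with quantile normalisation, 42 as TPM, 121 with a mean of at least 10 FPKM, 18 with 50, 11 with a ratio of at most 1.2, 103 with 1.3, 49 with a coefficient of variation of at most 7.5% (36 shared), and 1771 with the group means alone. Leaving out 1 library gave 55 to 137 (without CK 3), and leaving out CK 3 and D + F 3, an alternative chosen after seeing the data like the choices on 2 groups, the TPM check of the 8 genes, the pairs and the neighbours, gave 271. The cause was not tested, except that fewer libraries cannot raise a ratio. None of the 45 was called by limma in any of 39 alternative fits (13 a comparison), with at most 2 at an unadjusted p under 0.05. Over all genes these fits called 18.9% to 35.1% in D vs. CK and 6.17% to 22.8% in D + F vs. CK. In D + F vs. D they called 0% to 1.18%. Nothing is read from the absence of calls among the 45, since the choice used the same libraries. The median variance relative to counting went from 4.55 to 7.33 with median-of-ratios scaling. Deviations of same-numbered libraries correlated between -0.29 and 0.31, and those of different numbers between -0.28 and 0.32. Between CK and D + F every library correlated best with its own number (0.31, 0.05 and 0.27), a pattern in the data and not the design. For CK 2 and D + F 2 the lead was slight, at 0.05 against 0.04 for CK 3 and D + F 2. The pattern did not hold for D (CK 1 and D 1 at -0.29), and the highest correlation was between D 2 and D + F 1 (0.32). The labels give no shared batch, so the numbers were not taken to pair the samples. With the replicate number as a replicate block, 0 of the 45 were called and the calls over all genes went from 16209, 8641 and 580 to 11986, 11060 and 1. In D + F vs. D, leaving out a library gave 0 to 576 calls over all genes. Of the 471 genes with at most 200 read pairs 0 were chosen, and of the 1506 with over 200 and up to 400, 0.0664%. The share was 0.487% over all genes of that level and 0.624% to 0.726% above 800 read pairs. Whether depth limits the choice was not tested.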
